A study of Caenorhabditis elegans with 22 samples.

Results

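The genes described here encode subunits of the mitochondrial respiratory chain and ATP synthase of *C. elegans*. They are 41 nuclear genes, picked by gene identifier from the 45460 genes of an RNA-seq table of embryos. Of these genes, 14 encode subunits of complex I (NADH dehydrogenase), 4 of complex II (succinate dehydrogenase), 6 of complex III (the cytochrome *bc*1 complex), 5 of complex IV (cytochrome *c* oxidase) and 11 of complex V (ATP synthase), and 1 encodes cytochrome *c*. The choice was by function, but earlier results of these data were known when it was made.

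Embryos were kept for 3 h on standard growth plates with 50 mM NaCl or on plates with 500 mM NaCl, an osmotic stress. Experiment 1 compared wild-type embryos (Bristol strain N2) with *ssu-1* mutants, which are altered in a cytosolic sulfotransferase, and holds 2 libraries of each genotype at 50 mM and 3 of each at 500 mM. Experiment 2 compared wild-type embryos with mutants of *daf-16*, the FOXO transcription factor below insulin-like signaling, and holds 3 libraries of each genotype at each concentration. The growth protocol and the study's methods name the alleles *ssu-1(fc73)* and *daf-16(m26)*. The strain labels instead list several *ssu-1* alleles together with zIs356, a *daf-16* promoter transgene that expresses DAF-16a/b-GFP with *rol-6*, for the *ssu-1* libraries, and m26 and mu86 for the *daf-16* libraries, so whether the sequenced *ssu-1* embryos carried the transgene is not settled here. Whole embryos of mixed cell types were sequenced. The replicates are called biological, but no source says that they came from separate cultures.

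In the respiratory chain, complexes I and II pass electrons from NADH and succinate to ubiquinone, complex III passes them from ubiquinone to cytochrome *c*, and complex IV passes them to oxygen. Complexes I, III and IV pump protons across the inner mitochondrial membrane, and ATP synthase uses the return flow to make ATP through its rotating F1 head. The subunits of complexes I, III, IV and V come from both the nuclear and the mitochondrial genome, while complex II is wholly nuclear. Mutants of several of these genes, among them *gas-1*, *mev-1* and *isp-1*, are classical models of altered respiration, stress resistance and lifespan in the worm.

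The measure is FPKM, mapped fragments scaled to transcript length and to the size of the library, which allows levels to be compared between genes. All FPKM of a library summed to between 736577 and 877080. The totals at 50 mM were above those at 500 mM in each experiment. They were 792189 to 877080 against 736577 to 782290 in experiment 2 and 770727 to 783312 against 752179 to 769577 in experiment 1. Sequencing depth, estimated from the spacing of low FPKM, lay between 0.665 and 1.27 times that of the median library. The shallowest library was wild-type replicate 5 at 50 mM in experiment 2. It stood apart in transcripts of the mitochondrial genome, with a summed FPKM of 25855 over 12 genes, against 15026 and 15188 in replicates 3 and 4 of the same group. Those replicates carry library numbers of another series than the remaining 10 libraries of experiment 2. No library at 500 mM is of that series, so in wild type of experiment 2 salt and series are partly confounded. No *daf-16* library is of it either. Series is thus also partly confounded with genotype at 50 mM in experiment 2, and with the interactions that use these libraries. The *ssu-1* transcript was at 1.78 to 2.99 FPKM in wild-type libraries of experiment 1 and at 0.37 to 1.74 in those labelled *ssu-1*. The *daf-16* transcript was at 149 to 156 FPKM in the *daf-16* libraries at 50 mM, above the 74.0 to 91.2 FPKM in wild type of experiment 2. At 500 mM it was at 206 to 289 against 217 to 250 FPKM, which overlapped, and how the allele bears on this level was not tested. In experiment 1 it was at 114 to 120 FPKM in *ssu-1* libraries and 123 to 124 in wild type at 50 mM. At 500 mM it was at 105.5 to 115 and 157 to 163 FPKM. Whether the transgene adds to this transcript was not tested. All 7 markers of adults and yolk were below 0.5 FPKM in every library.

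All 41 genes passed the filter for testing, which asked for 1 FPKM or more in 2 or more libraries of a fit. In wild-type embryos at 50 mM in experiment 1, their mean levels ran from 6.78 FPKM for *ucr-2.3* (T24C4.1), a core protein of complex III, to 867 ± 32.6 FPKM (SD, n = 2) for *cyc-2.1* (E04A4.7), which encodes cytochrome *c*. The next were *atp-2* (C34E10.6) at 852 ± 19.4 FPKM (SD, n = 2) and *atp-1* (H28O16.1) at 750 ± 49.9 FPKM (SD, n = 2), the beta and alpha subunits of the F1 head. The libraries of *cyc-2.1* (844 and 890 FPKM) and *atp-2* (838 and 865 FPKM) overlapped, so the order of these 2 genes is not settled by the spread. The median level was lowest in complex II (141 FPKM) and complex I (156 FPKM), intermediate in complex III (220.2 FPKM), and highest in complexes V (409 FPKM) and IV (429.7 FPKM). The low members were *ucr-2.3* and *asb-1*, each a lesser-expressed copy of a gene pair or trio. The gene *asb-1* (F35G12.10) encodes the germline form of the stalk subunit b of ATP synthase and *asb-2* (F02E8.1) the somatic form, and in the same libraries they were at 24.3 ± 0.445 and 300.3 ± 22.2 FPKM (SD, n = 2).

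The summed FPKM of the 41 genes was similar in all groups of experiment 1 and differed with salt in experiment 2. In experiment 1 it lay between 11706 and 12260 at 50 mM and between 11780 and 12419 at 500 mM over both genotypes. In experiment 2 it was 20107, 16016 and 17471 in wild-type replicates 3, 4 and 5 at 50 mM, and 13153, 12935 and 13429 in replicates 4, 5 and 6 at 500 mM. In *daf-16* mutants it was 17026, 16828 and 17276 at 50 mM, and 12625, 11917 and 11764 at 500 mM. Every library at 500 mM was thus below every library at 50 mM in experiment 2, while in experiment 1 the concentrations overlapped. As a share of all FPKM of a library, the 41 genes took 2.00 to 2.29% at 50 mM and 1.6 to 1.72% at 500 mM in experiment 2, and 1.52 to 1.64% in all libraries of experiment 1. In RNA from whole embryos, fewer cells of a type and less RNA per cell cannot be told apart.

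**Figure D1:**
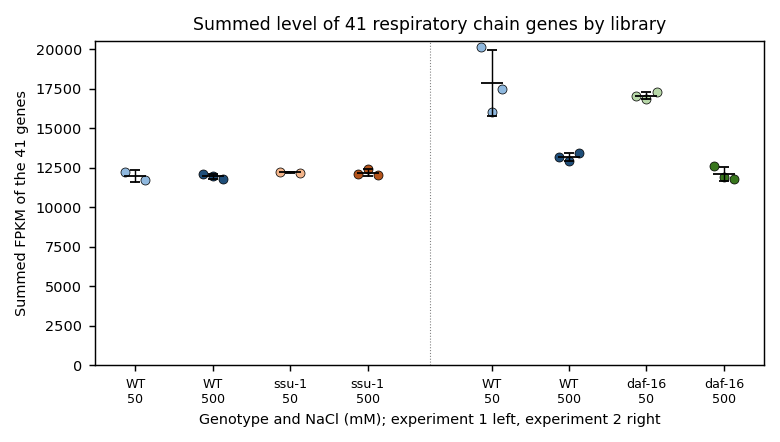
Summed FPKM of the 41 respiratory chain genes (vertical axis) in each library (points), by genotype and NaCl concentration in mM. Horizontal marks are group means and bars are SD (n = 2 or 3). The 6 libraries of experiment 2 at 50 mM lie at 16016 or above, and the other 16 libraries at 13429 or below.

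The first comparison asked how the 41 genes changed with osmotic stress in wild-type embryos of experiment 2. Salt was partly confounded here with the series of library numbers, since the other number series occurs only at 50 mM. Of them, 29 fell and 2 rose, beside 33.5% of all 14868 genes tested that fell and 36.7% that rose, 70.1% together (limma on log2(FPKM + 1), adjusted p under 0.05). Their median log2 change was −0.39, beside 0.06 for all genes tested. The total FPKM of a library was lower at 500 mM, and with FPKM rescaled to one total fewer members fell, as given in the section on processing. In 26 of the 41 genes every library at 500 mM was below every library at 50 mM, which held for 33.9% of all genes tested, and in 2 every library was above, beside 36.6%. Genes with a mean of at least 300 FPKM fell more often than all genes tested, whereas those between 80 and 300 FPKM did not. Of the 19 members with a mean of at least 300 FPKM in this experiment, 15 fell, beside 51.8% of all genes at that level, and of the 20 members between 80 and 300 FPKM, 14 fell, beside 32.3%.

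The falls were largest in ATP synthase, where 8 of 11 genes fell, with a median log2 change of −0.76. The gene *atp-2* was at 2113, 1755 and 1664 FPKM at 50 mM and at 1076, 1044 and 1055 FPKM at 500 mM. The groups did not overlap, and the log2 change was −0.79 ± 0.10 (SE, limma adjusted p = 1.12e-05). The alpha subunit *atp-1* was at 1684, 1361 and 1166 FPKM at 50 mM and at 778, 748 and 775 FPKM at 500 mM, again without overlap (log2 change −0.86 ± 0.11, SE, limma adjusted p = 2.44e-05). The gene *asg-2* (C53B7.4), which encodes subunit g of the membrane part, was at 431, 319.6 and 573 FPKM at 50 mM and at 213, 201 and 208 FPKM at 500 mM. Its change of −1.05 ± 0.16 (SE, limma adjusted p = 8.93e-05) was the largest fall among the 41 genes here. The peripheral stalk genes *atp-3*, which encodes the oligomycin sensitivity subunit, and *atp-5*, which encodes subunit d, fell by 0.58 and 0.77 on the log2 scale. The ATP synthase genes *hpo-18* (epsilon subunit) and *atp-4* (coupling factor 6) did not pass the test, with log2 changes of −0.29 and −0.18.

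All 4 genes of succinate dehydrogenase fell, with a median log2 change of −0.54. The membrane anchor *mev-1* was at 281, 234 and 225 FPKM at 50 mM and at 169, 185 and 174 FPKM at 500 mM. Its libraries did not overlap, and its log2 change of −0.48 ± 0.09 (SE, limma adjusted p = 0.00061) was smaller than that of the iron-sulfur subunit *sdhb-1* (−0.66 ± 0.09, SE). In complex I, 9 of 14 genes fell and none rose, with a median of −0.25. The core subunit *gas-1* was at 147, 128 and 128 FPKM at 50 mM and at 97.3, 102 and 104.5 FPKM at 500 mM, without overlap (log2 change −0.40 ± 0.07, SE, limma adjusted p = 0.000256). The 5 members of complex I that did not pass were the core subunit genes *nuo-1*, *nuo-2* and *nuo-5* and the accessory subunit genes *ndub-5* and *ndub-7*. Another core subunit gene, *nduv-2*, fell (log2 change −0.24, limma adjusted p = 0.0256).

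In complex III, 4 of 6 genes fell and *ucr-2.3* rose. The Rieske iron-sulfur protein gene *isp-1* was at 427, 342 and 366 FPKM at 50 mM and at 308, 305 and 301 FPKM at 500 mM (log2 change −0.31 ± 0.08, SE, limma adjusted p = 0.00573). Its groups did not overlap. In complex IV, 4 of 5 genes fell. The exception was *cox-5B*, at 701, 537 and 711 FPKM at 50 mM and 547, 540.2 and 583 FPKM at 500 mM, whose groups overlapped (log2 change −0.21 ± 0.10, SE, limma adjusted p = 0.0818). The cytochrome *c* gene *cyc-2.1* was among the 10 members that did not pass in this genotype. It was at 1612, 1194 and 1294 FPKM at 50 mM and at 1601, 1461 and 1598 FPKM at 500 mM, and the groups overlapped (log2 change 0.19 ± 0.11, SE, limma adjusted p = 0.126).

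Several small subunits were highest in wild-type replicate 5 at 50 mM, the shallow library. At 50 mM *cox-6A* was at 429, 357 and 692 FPKM in replicates 3, 4 and 5, *ndub-3* at 237, 177 and 307 FPKM, and *F45H10.2*, a small subunit of complex III, at 253, 195 and 359.7 FPKM. The first 2 of these genes passed the test although their groups overlapped, whereas *F45H10.2* did not pass. The gene *asg-2* was also highest in replicate 5, at 431, 319.6 and 573 FPKM, and its groups did not overlap. In contrast, *atp-1*, *atp-2*, *mev-1* and *isp-1* were highest in replicate 3. When single libraries were left out, 24 to 34 members fell and 2 or 3 rose in wild type.

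Mutants of *daf-16* again had the largest median falls in ATP synthase and succinate dehydrogenase. In them 33 of the 41 genes fell and 2 rose, beside 41.1% and 37.1% of all genes tested (78.1% together), and the median log2 change was −0.45, beside −0.06. Fewer fell with FPKM rescaled to one total, as given in the section on processing. In 36 genes every library at 500 mM was below every library at 50 mM, beside 43.8% of all genes tested, and in 3 every library was above, beside 39.5%. Of the 19 members with a mean of at least 300 FPKM, 18 fell, beside 63.1% of all genes at that level, and of the 20 members between 80 and 300 FPKM, 15 fell, beside 38.8%. Of the genes that fell, 27 were shared with wild type, which is 27 of the 29 in wild type and 27 of the 33 in *daf-16* mutants. Members of ATP synthase fell in 10 of 11 cases (median −0.67) and all 4 genes of succinate dehydrogenase fell (median −0.53). The gene *asg-2* again had the largest fall, from 460.1, 437 and 461 FPKM at 50 mM to 172, 138 and 139 FPKM at 500 mM, without overlap (log2 change −1.59 ± 0.16, SE, limma adjusted p = 1.54e-06). It was followed by *asb-2*, at 479, 463 and 478 FPKM against 250.0, 261 and 242 FPKM (log2 change −0.91 ± 0.09, SE, limma adjusted p = 1.79e-06), and by *nduf-6*, an accessory subunit of complex I, at 141, 144 and 148 FPKM against 94.7, 74.0 and 77.0 FPKM (log2 change −0.82 ± 0.13, SE, limma adjusted p = 8.49e-05). Neither of them overlapped between the concentrations. The 6 members that did not pass were *nuo-1*, *nuo-2*, *nuo-3*, *nuo-4* and *nuo-5* of complex I and *cox-5B* of complex IV.

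**Figure D2:**
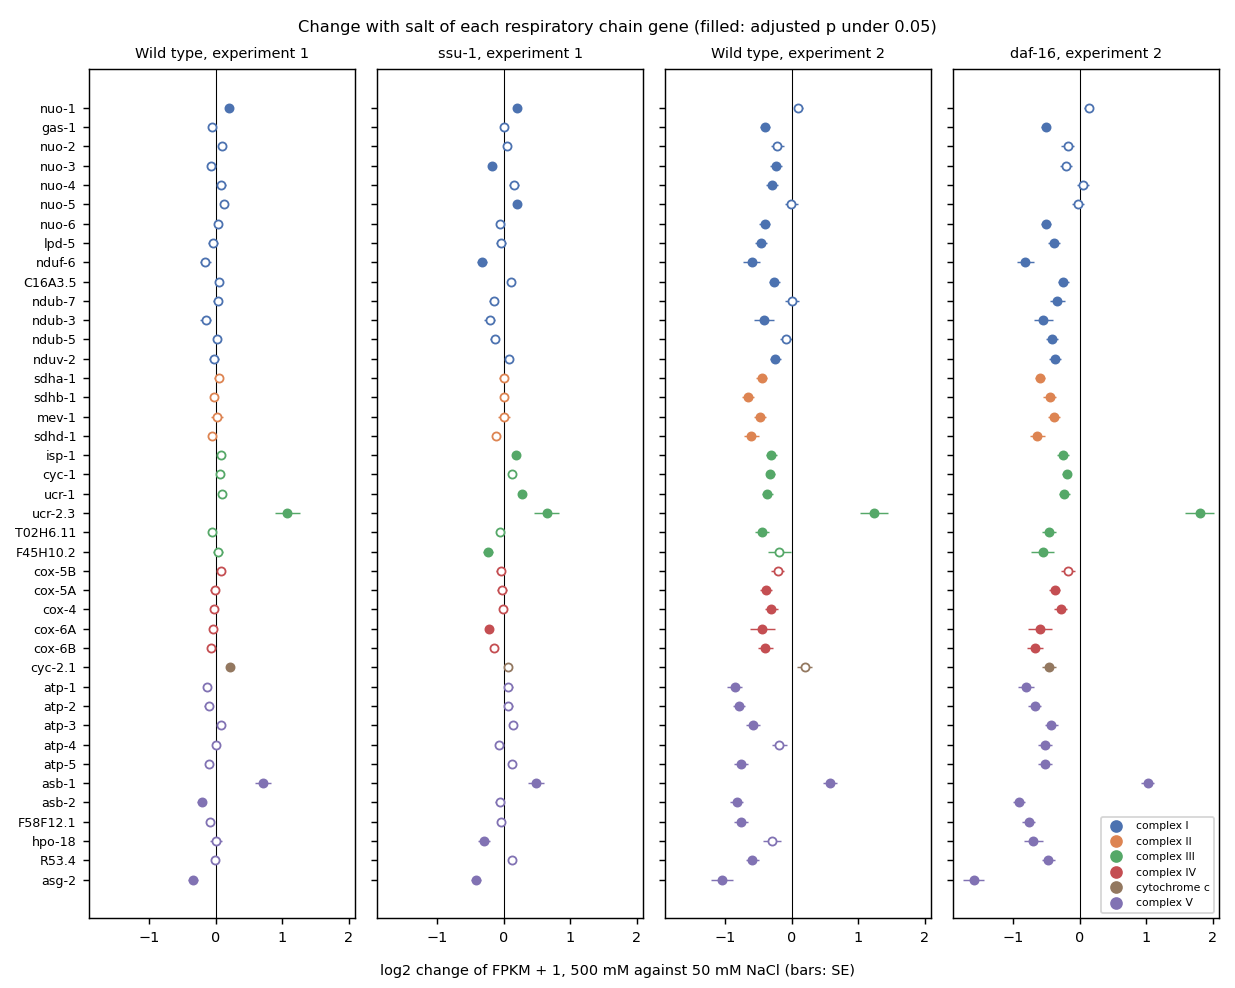
Log2 change of FPKM + 1 at 500 mM against 50 mM NaCl (horizontal axis, bars are SE) of each of the 41 genes (rows, ordered by complex) in the 4 genotype and experiment series. Filled points passed an adjusted p of 0.05. In experiment 2 most points lie left of 0, with 29 and 33 genes that fell, whereas in experiment 1 most lie near 0, and *asb-1* and *ucr-2.3* lie right of 0 in all 4 panels.

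In wild-type embryos of experiment 1, 2 of the 41 genes fell and 4 rose, beside 26% and 25.3% of the 13924 genes tested (51.3% together). Every library at 500 mM was below every library at 50 mM in 10 genes and above in 8, beside 35% and 33.7% of all genes. After quantile normalization 3 fell and 3 rose, beside 3515 and 3358 of all genes tested. The median log2 change was 0.00, beside −0.01 for all genes. The genes that fell were *asg-2*, from 221 and 211 FPKM at 50 mM to 169, 172 and 169 FPKM at 500 mM (log2 change −0.34 ± 0.07, SE, limma adjusted p = 0.00345), and *asb-2*, from 316 and 285 FPKM to 251, 253 and 273 FPKM (−0.21 ± 0.07, SE, limma adjusted p = 0.0197). The genes that rose were *asb-1*, *ucr-2.3*, *cyc-2.1* and *nuo-1*. Cytochrome *c* was at 890 and 844 FPKM at 50 mM and at 1060.5, 986 and 989 FPKM at 500 mM, without overlap (log2 change 0.22 ± 0.06, SE, limma adjusted p = 0.0128). The flavoprotein gene *nuo-1* rose by a like amount (log2 change 0.20 ± 0.06, SE, limma adjusted p = 0.014). The well-studied subunits of the other complexes did not pass. Their log2 changes were −0.06 for *gas-1* (95% interval −0.18 to 0.07), 0.02 for *mev-1* (−0.17 to 0.21), 0.07 for *isp-1* (−0.04 to 0.19), 0.08 for *cox-5B* (−0.06 to 0.22) and −0.11 for *atp-2* (−0.26 to 0.05).

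In *ssu-1* mutants, 6 genes fell and 6 rose, beside 18.1% and 18.5% of all genes tested (36.6% together), with a median of 0.00 beside 0.00. The concentrations did not overlap in 9 genes that were lower and 10 that were higher, beside 30.7% and 30.4% of all genes. With FPKM rescaled to one total 4 fell and 7 rose, beside 2152 and 2973 of 14389 genes. After quantile normalization 6 fell and 10 rose, beside 2525 and 2447 of 13924 genes. Without *ssu-1* replicate 1 at 50 mM, 1 fell and 4 rose. The genes that fell were *asg-2*, *nduf-6*, *hpo-18*, *F45H10.2*, *cox-6A* and *nuo-3*, with log2 changes from −0.42 to −0.18. The gene *asg-2* was at 214 and 193 FPKM at 50 mM and at 161, 136 and 159 FPKM at 500 mM (−0.42 ± 0.07, SE, limma adjusted p = 0.00175). The genes that rose were *ucr-2.3*, *asb-1*, *ucr-1*, *nuo-5*, *nuo-1* and *isp-1*, with log2 changes from 0.65 to 0.19. The core protein gene *ucr-1* of complex III was at 198 and 190.2 FPKM at 50 mM and at 240.2, 229 and 232 FPKM at 500 mM, without overlap (0.27 ± 0.05, SE, limma adjusted p = 0.00246). Between the genotypes, 3 of the genes that rose were shared (*asb-1*, *ucr-2.3* and *nuo-1*, of 4 and 6) and 1 that fell (*asg-2*, of 2 and 6).

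The 2 members with the lowest levels, *asb-1* and *ucr-2.3*, rose in all 4 series, and *asg-2* was the only member that fell in all 4. Of the other 39 members, none rose and 29 and 33 fell in wild type and *daf-16* mutants of experiment 2. In experiment 1, 2 of these members rose and 2 fell in wild type, and 4 rose and 6 fell in *ssu-1* mutants. The paralog of *asg-2*, *asg-1*, which is outside the 41 genes, had means of 141.4 FPKM at 50 mM and 150.0 FPKM at 500 mM in wild type of experiment 1. In *ssu-1* mutants its means were 149.0 and 121.5 FPKM. In experiment 2 they were 129.4 and 115.6 FPKM in wild type, where the groups overlapped, and 159.7 and 115.5 FPKM in *daf-16* mutants. In wild type of experiment 1 *asb-1* was at 23.9 and 24.6 FPKM at 50 mM and at 47.8, 41.1 and 33.25 FPKM at 500 mM (log2 change 0.71 ± 0.12, SE, limma adjusted p = 0.00101). In *ssu-1* mutants it was at 25.7 and 25.04 FPKM against 34.4, 39.7 and 34.1 FPKM (0.49 ± 0.12, SE, limma adjusted p = 0.011). The concentrations did not overlap in either genotype. In experiment 2 the wild-type libraries were at 20.2, 19.5 and 18.6 FPKM against 27.25, 29.5 and 31.8 FPKM (0.58 ± 0.10, SE, limma adjusted p = 0.000263). Those of *daf-16* mutants were at 20.9, 20.4 and 18.7 FPKM against 46.6, 35.5 and 43.2 FPKM (1.02 ± 0.10, SE, limma adjusted p = 1.37e-06). Here too the groups did not overlap. In wild type of experiment 2 the somatic paralog *asb-2* was at 597, 465 and 460.5 FPKM at 50 mM and at 276, 287 and 286 FPKM at 500 mM (log2 change −0.83 ± 0.09, SE, limma adjusted p = 6.42e-06). As a percentage of *asb-2*, *asb-1* thus was higher at 500 mM in experiment 2, to 10.4 ± 0.64 from 3.87 ± 0.43 in wild type and to 16.7 ± 2.7 from 4.22 ± 0.28 in the mutants (SD, n = 3). In experiment 1 the percentages at 50 mM were 8.1 ± 0.75 for wild type and 8.58 ± 0.36 for *ssu-1* mutants (SD, n = 2), and those at 500 mM were 15.8 ± 3.5 and 12.7 ± 0.53 (SD, n = 3). Reads shared by the 2 paralogs could be divided between them by the mapping, so these ratios are uncertain in so far as their sequences are alike.

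The low copy *ucr-2.3* of complex III also rose in every series. In wild type of experiment 1 it was at 5.83 and 7.73 FPKM at 50 mM and at 20.3, 13.75 and 12.8 FPKM at 500 mM (log2 change 1.08 ± 0.19, SE, limma adjusted p = 0.000999). In *ssu-1* mutants it was at 8.28 and 10.02 FPKM against 13.8, 17.4 and 13.6 FPKM (0.65 ± 0.19, SE, limma adjusted p = 0.0209). In experiment 2 it was at 5.12, 9.04 and 3.81 FPKM against 13.8, 14.7 and 15.7 FPKM in wild type (1.24 ± 0.22, SE, limma adjusted p = 0.000247). In *daf-16* mutants of that experiment it was at 6.19, 5.21 and 5.60 FPKM against 25.9, 17.8 and 23.7 FPKM (1.80 ± 0.22, SE, limma adjusted p = 7.15e-06). No group at 500 mM overlapped its 50 mM group. Adding 1 to the FPKM understates the fold change of a gene this low, and the ratio of the means was 2.3, 1.63, 2.46 and 3.96 in these 4 series. Its more abundant relatives *ucr-2.1* and *ucr-2.2*, which are not among the 41 genes, fell in experiment 2, by 0.40 and 0.73 on the log2 scale in wild type. A further low copy outside the 41 genes, *nduf-2.2*, the paralog of *gas-1*, rose from 4.48 to 7.21 FPKM in wild type of experiment 1 (log2 change 0.58 ± 0.14, SE, limma adjusted p = 0.00639) and from 5.01 to 8.21 FPKM in that of experiment 2 (0.62 ± 0.14, SE, limma adjusted p = 0.00142). It rose in *daf-16* mutants as well (0.88 ± 0.14, SE) and did not pass in *ssu-1* mutants (0.34 ± 0.14, SE, limma adjusted p = 0.0803). The low copy *sdha-2*, the paralog of *sdha-1*, rose in wild type of experiment 1 (0.26 ± 0.09, SE, limma adjusted p = 0.0357) and passed in no other series, with log2 changes of 0.00 in *ssu-1* mutants, 0.22 in wild type of experiment 2 and 0.07 in *daf-16* mutants.

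Transcripts that mark early embryos were read beside these copies. Of 14 early-embryo markers, such as *pos-1*, *mex-5* and *nos-2*, 11 rose and none fell in wild type of experiment 1, and 1 rose and none fell in *ssu-1* mutants, where *asb-1* and *ucr-2.3* rose as well. Of all genes tested, 25.3% and 18.5% rose in these series. In experiment 2, 11 rose and 1 fell in wild type, and 13 rose and 1 fell in *daf-16* mutants, beside 36.7% and 37.1% of all genes that rose. Their summed FPKM was 208 to 246 at 50 mM and 259 to 454 at 500 mM in wild type of experiment 1. In *ssu-1* mutants it was 250 to 294 and 286 to 325. In experiment 2 the wild-type sums were 271 to 349 at 50 mM and 308 to 324 at 500 mM, which overlapped. Those of *daf-16* mutants were 261 to 283 and 398 to 650. The marker that fell in both genotypes, *skn-1*, was a large part of these sums. Its mean went from 207.7 to 122.0 FPKM in wild type and from 188.1 to 142.3 FPKM in the mutants. The other 13 markers had positive log2 changes in both, so the sums understate their rise. No early-embryo marker was at 0 in any library. Their part in the changes of *asb-1* and *ucr-2.3* was not tested.

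**Figure D3:**
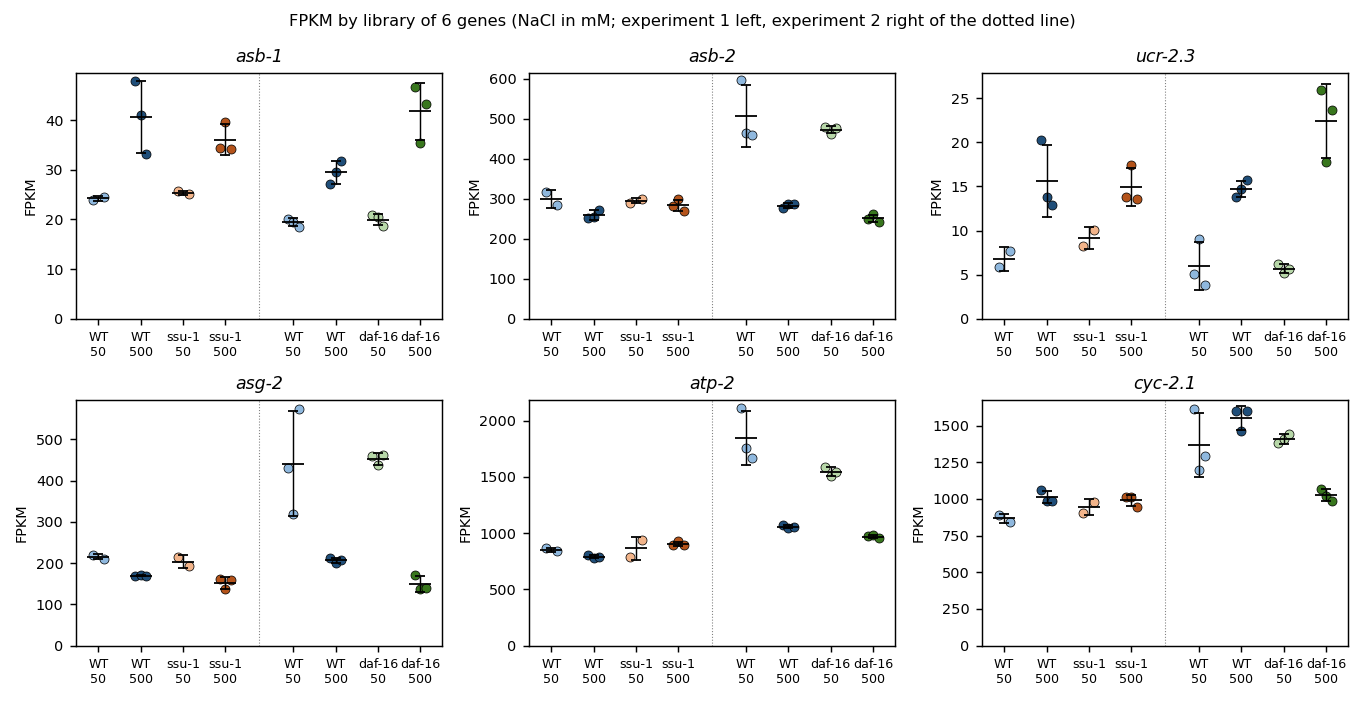
FPKM of 6 of the genes (vertical axes from 0) in each library (points), by genotype and NaCl concentration in mM, with experiment 1 left and experiment 2 right of the dotted line. Horizontal marks are means and bars are SD (n = 2 or 3). The germline copy *asb-1* and *ucr-2.3* are higher at 500 mM in every series, *asg-2* is lower, and *cyc-2.1* is lower at 500 mM in *daf-16* mutants, a fall that was not seen after quantile normalization.

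The next comparison asked whether the mutants differed from wild type. Between *ssu-1* mutants and wild type no member passed the test at 50 mM, beside 0.646% of all genes tested, nor at 500 mM, beside 5.64%, nor in the interaction of salt and genotype, beside 1.37% (limma). Of all genes, 0.165% were higher and 0.481% lower in the mutants at 50 mM, 2.83% and 2.82% at 500 mM, and 0.682% and 0.689% had a more positive or more negative change with salt. Every mutant library was above every wild-type library in 8 members and below in 0 at 50 mM, beside 24% and 18% of all genes, and above in 8 and below in 8 at 500 mM, beside 16.2% and 9.12%. At an unadjusted p under 0.05 there were 0, 14 and 5 members, beside 1741, 2657 and 2046 of the 13924 genes tested. The log2 differences of the members from wild type lay between −0.09 and 0.39 at 50 mM and between −0.26 and 0.20 at 500 mM, and their 95% intervals between −0.27 and 0.84 and between −0.43 and 0.33. At 500 mM *atp-1* was at 787, 796 and 768 FPKM in *ssu-1* mutants and at 679, 676 and 694 FPKM in wild type, without overlap, yet its difference of 0.20 (95% interval 0.07 to 0.32) had an adjusted p of 0.07 (limma). For *atp-2* the difference was 0.19 (95% interval 0.06 to 0.33, limma adjusted p = 0.107). Without either of the *ssu-1* libraries at 50 mM, 3 members passed at 500 mM, and without wild-type replicate 3 at 500 mM 1 passed.

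Between *daf-16* mutants and wild type no member passed at 50 mM, beside 3.68% of all genes tested (2.58% higher and 1.1% lower, limma). At an unadjusted p under 0.05 there were 5 members, beside 3111 of the 14868 genes tested. The log2 differences of the members lay between −0.26 and 0.24. The other number series holds no *daf-16* library, so series and genotype were partly confounded at 50 mM. Leaving that series out left only replicate 5 of wild type at 50 mM, and more members and more of all genes then passed. Without any 1 of the 3 wild-type libraries at 50 mM 1 member passed. Every mutant library was above every wild-type library in 2 members and below in 5, beside 14.9% and 5.65% of all genes. At 500 mM 1 member was higher and 3 were lower, beside 16.3% and 12.9% of all genes tested (29.2% together), and the groups did not overlap in 4 that were higher and 12 that were lower, beside 29.2% and 24.3%. With FPKM rescaled to one total 2 were higher and 2 lower, beside 2894 and 1578 of 15232 genes. After quantile normalization 2 were higher and 3 lower, beside 2142 and 1742 of 14868 genes. The count was 2 without wild-type replicate 5 or 6 at 500 mM, *daf-16* replicate 2 or 3 at 50 mM, or *daf-16* replicate 3 at 500 mM. The largest difference was that of cytochrome *c*. The gene *cyc-2.1* was at 1067, 1019 and 987 FPKM in *daf-16* mutants at 500 mM and at 1601, 1461 and 1598 FPKM in wild type, without overlap (log2 difference −0.60 ± 0.11, SE, limma adjusted p = 0.00222). At 50 mM it was at 1379, 1407 and 1445 FPKM in the mutants, within the range of the wild-type libraries. The lower members were also *asg-2* (−0.47 ± 0.16, SE, limma adjusted p = 0.0447) and *sdha-1*, the flavoprotein of succinate dehydrogenase (−0.24 ± 0.08, SE, limma adjusted p = 0.0415). Over the 20 alternatives the call of *asg-2* was lost in 11 (limma adjusted p from 0.000665 to 0.347) and that of *sdha-1* in 9 (0.0148 to 0.215). The gene that was higher was *asb-1* (0.48 ± 0.10, SE, limma adjusted p = 0.00506).

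In the interaction of salt and the *daf-16* genotype, *cyc-2.1* was the only member that passed, beside 18.1% of all genes tested, of which 11.2% had a more negative and 6.85% a more positive change in the mutants. Its level did not pass with salt in wild type (log2 change 0.19 ± 0.11, SE) and fell in *daf-16* mutants (−0.46 ± 0.11, SE, limma adjusted p = 0.00179), although in the mutants the change was 0.02 after quantile normalization. The difference of the changes was −0.66 ± 0.15 (SE, limma adjusted p = 0.0147). The series of library numbers was partly confounded with this interaction. With FPKM rescaled or quantile-normalized 3 members passed, 2 with a more positive and 1 with a more negative change in the mutants. Of all genes, 1177 and 1157 did so after rescaling, and 1216 and 1354 after quantile normalization. Without wild-type replicate 5 at 50 mM 8 members passed, without replicate 3 there were 3, and without replicate 4, or without *daf-16* replicate 2 at 500 mM, 2. The next members in order of p did not pass, *asb-1* with a difference of 0.44 ± 0.14 (SE, limma adjusted p = 0.0503) and *nuo-4*, an accessory subunit of complex I, with 0.35 ± 0.13 (SE, limma adjusted p = 0.0773). The genes *isp-1* and *mev-1* had differences of 0.06 ± 0.12 and 0.09 ± 0.13 (SE).

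The change with salt was then compared between the wild-type series of the experiments, 11 libraries in all. In 18 members the change was more negative in experiment 2 and in none more positive, beside 14.6% and 17% of the 14638 genes tested, 31.6% together (limma on the 11 libraries). The median difference was −0.38, beside 0.04 for all genes tested, and 40 of the 41 differences were negative. By complex the 18 were 8 of 11 in ATP synthase (median difference −0.66), 4 of 4 in succinate dehydrogenase (−0.53), 3 of 6 in complex III (−0.39), 3 of 14 in complex I (−0.28) and none of 5 in complex IV (−0.33). The largest were *atp-1* (−0.72 ± 0.18, SE, limma adjusted p = 0.0116), *asg-2* (−0.70 ± 0.24, SE, limma adjusted p = 0.042), *atp-2* (−0.69 ± 0.15, SE, limma adjusted p = 0.00597), *F58F12.1*, the delta subunit of F1 (−0.68 ± 0.16, SE, limma adjusted p = 0.00762), and *atp-5* (−0.67 ± 0.17, SE, limma adjusted p = 0.0111). Over the 19 alternatives the call of *asg-2* was lost in 12, those of *atp-1* and *atp-5* in 2 each, and those of *atp-2* and *F58F12.1* in 1 each. For *asb-1* and *ucr-2.3*, which rose in both, the differences were −0.13 ± 0.18 and 0.16 ± 0.36 (SE). The count rested on single libraries. It was 5 without replicate 2 and 9 without replicate 1 of the 50 mM libraries of experiment 1, 11 without replicate 4 at 500 mM and 31 without replicate 4 at 50 mM of experiment 2.

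**Figure D4:**
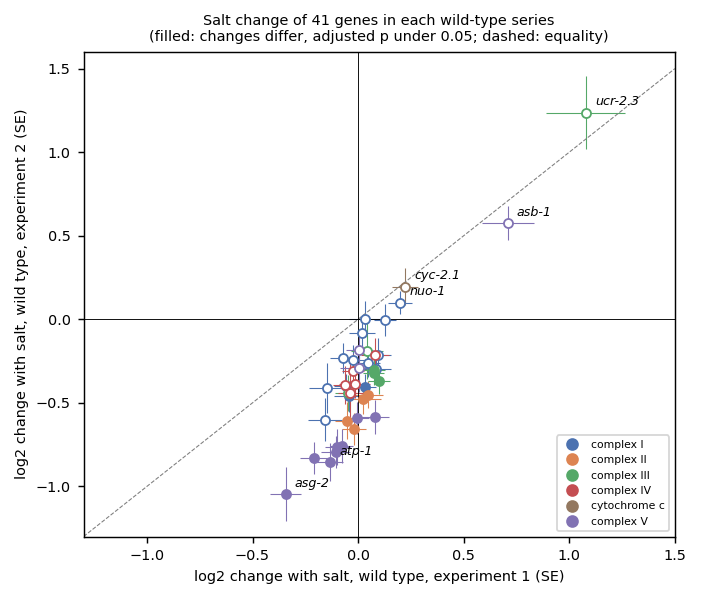
Log2 change with salt of the 41 genes in wild type of experiment 1 (horizontal axis) and of experiment 2 (vertical axis), with SE bars and complexes by color. The dashed line marks equal changes, and filled points are the 18 genes whose changes differed. Nearly all genes lie below the line, with *atp-1* and *asg-2* lowest, while *asb-1* and *ucr-2.3* lie close to it.

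The experiments differed mainly at 50 mM. In wild type at 50 mM every library of experiment 2 was above every library of experiment 1 in 30 of the 41 genes and below in 1, *asb-1*, beside 34.8% and 39.5% of all genes tested. The median ratio of the means was 1.31, beside 0.975 for all genes, and it was 1.77 in ATP synthase and 1.52 in succinate dehydrogenase. The largest ratio was that of *atp-2* at 2.17, from 865 and 838 FPKM to 2113, 1755 and 1664 FPKM. At 500 mM 17 genes were above and 9 below, beside 29.8% and 35.6%, and the median ratio was 1.03, beside 0.979. The gene *atp-2* was then at 806, 783 and 785 FPKM in experiment 1 and at 1076, 1044 and 1055 FPKM in experiment 2, closer but still without overlap. The experiments carry separate library numbers and hold different libraries, so a difference in the salt response and any other difference between them cannot be told apart.

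Markers of late embryos also differed between the wild-type libraries of the experiments at 50 mM. Cuticle and hatching genes were lower in experiment 2, with *hch-1*, which encodes a hatching protease, at 42.5 ± 19 FPKM (SD, n = 3) against 217 ± 15.6 (SD, n = 2), and *dpy-7*, a cuticle collagen, at 82.8 ± 30.5 against 319 ± 24.8. Muscle genes were higher, with the myosin *unc-54* at 719 ± 95.9 FPKM against 274 ± 42.8 and the paramyosin *unc-15* at 970.1 ± 95 against 448 ± 46.3. With salt, *hch-1* rose in experiment 2 by 2.33 ± 0.24 (SE, limma adjusted p = 2.92e-06) on the log2 scale. Of all 14 late-embryo markers, 6 rose and 6 fell with salt in wild type of experiment 2 and 1 rose and 6 fell in that of experiment 1, beside 36.7% and 25.3% of all genes that rose and 33.5% and 26% that fell. Their summed FPKM at 50 mM was 8246 to 9084 in wild type of experiment 2 and 11217 to 11294 in experiment 1, and at 500 mM it was 9551 to 10068 and 9271 to 10178. No late-embryo marker was at 0 in any library. The part of these differences in the changes of the respiratory chain genes was not tested.

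Further nuclear genes of the chain, listed separately from the 41, were compared with them. Of 30 other subunits 29 were tested. In experiment 2, 13 fell and 4 rose with salt in wild type (median log2 change −0.21) and 20 fell and 2 rose in *daf-16* mutants (−0.40), beside 33.5% and 41.1% of all genes tested that fell and 36.7% and 37.1% that rose. In experiment 1, 3 fell and 8 rose in wild type (0.04) and 7 fell and 2 rose in *ssu-1* mutants (−0.03), beside 26% and 18.1% of all genes that fell and 25.3% and 18.5% that rose. The same shares stand beside the counts of the next lists. The largest falls in wild type of experiment 2 were those of *Y69A2AR.18* (−0.75 ± 0.09, SE), which encodes the gamma subunit of F1, *ucr-2.2* (−0.73 ± 0.09, SE) and *R07E4.3* (−0.69 ± 0.13, SE). Of the 17 genes of pyruvate dehydrogenase and the TCA cycle, the source of NADH and succinate, 14 fell and none rose in wild type of experiment 2 (median −0.39), and 13 fell and 2 rose in *daf-16* mutants (−0.38). In experiment 1, 1 fell and 2 rose in wild type (−0.02) and 1 fell and 5 rose in *ssu-1* mutants (0.15). Mitochondrial malate dehydrogenase, *mdh-2*, had the largest fall of that list in wild type of experiment 2 (−1.24 ± 0.13, SE, limma adjusted p = 4.1e-06), from 317 ± 84.8 to 130.5 ± 1.1 FPKM (SD, n = 3).

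The 12 protein-coding genes of the mitochondrial genome, which encode the remaining subunits of complexes I, III, IV and V, were read from the same fits. With salt none passed in wild type of experiment 1 (limma, 1 at an unadjusted p under 0.05, median log2 change −0.12) and 9 fell in *ssu-1* mutants (−0.39), beside 18.1% of all genes that fell there. In experiment 2 the wild type had 4 that fell (−0.58) and the *daf-16* mutants 2 (−0.22), which is 33.3% and 16.7% of the list beside 33.5% and 41.1% of all genes. No gene of this list rose in any of the 4 series. At 50 mM 5 of the 12 were higher in *ssu-1* mutants than in wild type, beside 0.165% of all genes tested that were higher. The median log2 difference was 0.50. Among the 5 was *MTCE.4*, which is near 0, at 2.31 and 1.9 FPKM in the mutants and 0.39 and 0 FPKM in wild type. It was also among the 9 that fell with salt in the mutants. The largest difference was that of *MTCE.3*, annotated as ND6 of complex I, at 299 and 464 FPKM in *ssu-1* mutants and at 106 and 111 FPKM in wild type (log2 difference 1.77 ± 0.25, SE, limma adjusted p = 0.01). None of the 41 nuclear genes passed the test in that comparison. Over wild-type libraries at 50 mM of experiment 2, *MTCE.3* was at 223, 274 and 1037 FPKM, the last in the shallow replicate 5.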

How the data were processed

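RNA was taken from embryos after 3 h, libraries were made strand-specific, and 75-nucleotide paired-end reads were mapped by the authors to the ce10 assembly with RSEM 1.2.15 and Bowtie 1.0.1. The authors deposited FPKM per gene for 22 libraries, and expected counts were not used here. Of 45461 rows, 1 whose name is only a number and that lacks values for experiment 2 was left out, and 23483 of the other 45460 genes are at 0 throughout. Symbols come from a RefSeq table of another assembly (WBcel235, 44079 identifiers matched), so no coordinates are given.

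Libraries were grouped by their labels. log2(FPKM + 1) was fitted with limma 3.58.1 (eBayes with trend) in R 4.3.3, with one fit for each experiment and one for the 11 wild-type libraries, over genes with at least 1 FPKM in at least 2 libraries, and p-values were adjusted over all genes (Benjamini-Hochberg, threshold 0.05). Replicates were not blocked. The test was checked on simulated data. Intervals are 95% intervals of the fitted difference. The p-values measure the spread between these libraries. Depth was estimated from FPKM spacing and gives no counting intervals.

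The members and the 10 gene lists were chosen with earlier results of these data known. Named are, for each salt comparison, the 3 largest rises and falls among the genes that passed, all that passed between genotypes or in an interaction (at most 5), *asb-1*, *asb-2*, *gas-1*, *mev-1*, *isp-1*, *cox-5B* and *atp-2*. Of the lists up to 3 genes that passed are named, by size. Other genes named were chosen after their values were seen. RSEM divides reads among similar copies, so members with paralogs are uncertain. Alternatives were a pseudocount of 0.1, no filter, FPKM rescaled to 1000000 per library, quantile normalization, centring on the median, no trend, a replicate block, each library left out in turn, and the wild-type libraries of the other number series left out. Python 3.11.15 and matplotlib 3.10.9 were used for the figures.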

Additional observations from a re-analysis of the deposited data

Results flagged for a closer look

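The change with salt differed between genotypes in 1 member by the interaction test. For *cyc-2.1* the log2 change was more negative in mutants of *daf-16* than in the wild type, with a difference of −0.66. The series of library numbers was partly confounded with this test.

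Between the wild-type series of the experiments, the change with salt differed in 18 members by the same kind of test, always more negative in experiment 2. In ATP synthase the differences were −0.72 for *atp-1*, −0.70 for *asg-2*, −0.69 for *atp-2*, −0.68 for *F58F12.1*, −0.67 for *atp-5*, −0.66 for *atp-3*, −0.62 for *asb-2* and −0.59 for *R53.4*. In succinate dehydrogenase they were −0.64 for *sdhb-1*, −0.55 for *sdhd-1*, −0.50 for *sdha-1* and −0.50 for *mev-1*. In complex III they were −0.47 for *ucr-1*, −0.39 for *cyc-1* and −0.38 for *isp-1*, and in complex I −0.44 for *nuo-6*, −0.42 for *lpd-5* and −0.34 for *gas-1*. The levels at 50 mM and the late-embryo markers differed between the experiments as well, and their part was not tested. Groups of 2 or 3 libraries are too small for a search for single outlying libraries.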

How the results depend on the processing

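Over all alternatives except those that left out a library, the counts of members that changed with salt stayed within 1.5 times. The FPKM totals of the libraries were lower at 500 mM than at 50 mM. Rescaling moved the median of all genes by over 0.1 in experiment 2, from 0.06 to 0.16 in wild type and from −0.06 to 0.11 in *daf-16* mutants. The members that fell and rose were then 22 and 4 in wild type and 26 and 4 in *daf-16* mutants. The median of the members in the mutants was −0.27. Of the 15232 genes then tested, 4450 fell and 6191 rose in wild type, and 5375 fell and 6403 rose in the mutants. At 500 mM, 1 member differed between *ssu-1* mutants and wild type after rescaling, 2 after quantile normalization, 1 after centring and 2 with the replicate block. Between *daf-16* mutants and wild type at 500 mM 2 members passed without the trend and 10 without the other number series, which gave 5 at 50 mM. In the *daf-16* interaction 3 passed after rescaling, 3 after quantile normalization, 2 after centring and 4 without that series. In the comparison of experiments 31 passed without it. The change of *cyc-2.1* in *daf-16* mutants went from −0.46 to 0.015 after quantile normalization, where it did not pass. Over all genes, the calls between *daf-16* mutants and wild type at 50 mM were 384 higher and 163 lower, and 271 and 218 after quantile normalization, and those of the *daf-16* interaction were 1018 and 1667, and 1216 and 1354. The cause of these shifts was not tested.

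Leaving out 1 library at a time gave 4 to 7 members with salt in wild type of experiment 1, 5 to 14 in *ssu-1* mutants, 26 to 36 in wild type of experiment 2 and 30 to 38 in *daf-16* mutants. Between genotypes it gave 0 for *ssu-1* at 50 mM and 0 to 3 at 500 mM, and 0 to 1 for *daf-16* at 50 mM and 2 to 6 at 500 mM, where 2 remained without wild-type replicate 5 or 6 at 500 mM, *daf-16* replicate 2 or 3 at 50 mM, or *daf-16* replicate 3 at 500 mM. The interactions gave 0 for *ssu-1*, 1 to 8 for *daf-16* and 5 to 31 between experiments. Where this left 1 library in a group, it was assumed to vary like the others.

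No pairing of the libraries by replicate number was seen, but groups this small cannot exclude it. Deviations of same-numbered libraries correlated between −0.40 and 0.25 over 13 pairs in experiment 1 and between −0.29 and 0.28 over 7 pairs in experiment 2. With the replicate block 21 members fell with salt in wild type of experiment 2. With it 1 differed between *daf-16* mutants and wild type at 500 mM, and 0 differed between the experiments. Of all genes, 4320 fell, and 613 and 1252 differed in these comparisons. In that last comparison the blocks were set within each experiment. Depth is known only in relative terms, so no counting error can be given for low genes such as *ucr-2.3*.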

Other observations

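Other mitochondrial genes outside the respiratory chain were read from the same fits. The counts below stand beside 33.5% of all genes that fell and 36.7% that rose in wild type of experiment 2, 41.1% and 37.1% in *daf-16* mutants, 26% and 25.3% in wild type of experiment 1 and 18.1% and 18.5% in *ssu-1* mutants. Of 10 genes of the mitochondrial unfolded protein response, 5 fell and 1 rose with salt in wild type of experiment 2 (median log2 change −0.44) and 5 fell and 1 rose in *daf-16* mutants (−0.47), while in experiment 1 there were 1 and 1 in wild type (−0.07) and 1 and 0 in *ssu-1* mutants (−0.03). The chaperonin *hsp-60* had the largest fall of the list, from 331 ± 46.9 to 79.7 ± 4.94 FPKM (SD, n = 3) in wild type of experiment 2 (log2 change −2.03 ± 0.10, SE, limma adjusted p = 3e-09) and from 163 ± 3.04 (SD, n = 2) to 115.5 ± 7.07 FPKM (SD, n = 3) in that of experiment 1 (−0.49 ± 0.07, SE, limma adjusted p = 0.000455). Of 10 assembly factors, 4 fell and 2 rose in wild type of experiment 2 and none fell and 3 rose in that of experiment 1. Of these, *nuaf-1*, an assembly factor of complex I, rose in all 4 series, with log2 changes of 0.60 and 0.55 in wild type and *ssu-1* mutants of experiment 1 and of 1.29 and 1.64 in wild type and *daf-16* mutants of experiment 2. Of 8 genes of ubiquinone synthesis, 4 fell and 3 rose in wild type of experiment 2 and 1 fell and 3 rose in that of experiment 1.

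Of 6 carriers that exchange ADP and ATP or inhibitors of ATP synthase, 4 were tested. The carrier *ant-1.1* fell in wild type of experiment 2 (log2 change −0.80 ± 0.11, SE, limma adjusted p = 3.47e-05) and did not pass in that of experiment 1 (−0.04 ± 0.09, SE). Its paralog *ant-1.2* was at 0.14 FPKM or less at 50 mM in wild type of experiment 1 and at 14.1 to 15.2 FPKM at 500 mM, but at 0.04 to 0.27 FPKM in *ssu-1* mutants at 500 mM (interaction −3.64 ± 0.20, SE, limma adjusted p = 5.22e-06). In experiment 2 it was at 48.3 to 67.3 FPKM in wild type and at 2.7 to 4.02 FPKM in *daf-16* mutants at 500 mM (interaction −3.59 ± 0.22, SE, limma adjusted p = 6.95e-07). No nuclear subunit gene of the chain among the 41 showed a change of that size.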
